A study of Mus musculus with 12 samples.

Results

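The 10 genes described here encode alpha subunits of heterotrimeric G proteins, namely Gnai1, Gnai2, Gnai3, Gnao1, Gnaz, Gnas, Gnal, Gnaq, Gna11 and Gna12. They were taken by name, through their Ensembl identifiers in GENCODE M21, from the 47729 genes of the count table. All 10 passed the minimum of 10 reads in total, as did 26963 genes in all. Gnai2 was put on the list because it differed between the anxiety groups of these same mice, and the others were added as its relatives, so the values across groups are given as a description and without a test.

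Bilateral amygdala was taken from 12 female C57/BL6 mice of one age, with 1 library per mouse, after an elevated plus maze (EPM) at 9 weeks, a light/dark box (LD) at 10 weeks and a three-chamber social interaction test (SIT) at 11 weeks. No mouse was given a drug or carried a transgene according to the labels and the methods. The labels put 3 mice in a less anxious group (mice 3, 7 and 12), 4 in an anxious group (mice 1, 4, 8 and 11) and 4 in a more anxious group (mice 2, 6, 9 and 10), and mouse 5 has no group. These are predicted states, cut from the second principal component of the expression data after that component was seen to move with the EPM and LD measures. The groups are therefore neither a treatment nor independent of the genes measured.

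Each G protein has an alpha, a beta and a gamma subunit. A receptor that binds its ligand makes the alpha subunit exchange GDP for GTP, after which alpha and the beta-gamma pair act on different targets until the alpha subunit hydrolyses its GTP. Alpha subunits of the Gi/o class lower adenylyl cyclase activity or act mainly through the beta-gamma pairs they release, Gs and Golf raise cyclic AMP, Gq and G11 activate phospholipase C beta, and G12 acts on RhoGEFs. In the brain, Gi/o proteins carry the signals of opioid, cannabinoid, GABA-B and many monoamine receptors. Golf takes the place of Gs in striatal neurons.

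The coding sequences show how the classes differ at the end of the alpha subunit, the part that touches the receptor. The last 33 bases before the stop codon are given below from the GRCm38 genome and GENCODE M21, 5′ to 3′ on the coding strand, with the codon that is the fourth from the end in capitals. Pertussis toxin modifies a cysteine at that place, and TGT and TGC are the cysteine codons. The end of Gnal is not shown.
Gnai1: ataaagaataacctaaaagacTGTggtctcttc
Gnai2: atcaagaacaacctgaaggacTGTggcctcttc
Gnai3: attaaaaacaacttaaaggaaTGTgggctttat
Gnao1: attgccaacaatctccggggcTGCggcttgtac
Gnaz: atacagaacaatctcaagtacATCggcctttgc
Gnas: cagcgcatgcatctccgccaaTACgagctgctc
Gnaq: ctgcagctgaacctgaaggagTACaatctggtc
Gna11: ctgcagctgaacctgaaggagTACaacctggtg
Gna12: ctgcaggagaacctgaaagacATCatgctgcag

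Gnai1, Gnai2, Gnai3 and Gnao1 thus carry the cysteine codon, and Gnaz, the other Gi/o member, carries ATC in its place. Over the whole coding sequence, Gnai2 was identical to Gnai1 at 78.7% of aligned bases and to Gnai3 at 73.8%, and Gnaq to Gna11 at 80.5%. These similarities bear on how reads of 75 bases are divided among relatives. Of the 75-base windows in the transcripts of a member, the share also present in another gene was 0.78% for Gnai2, 0.11% for Gnal and 0% for the other members, so nearly all positions of these genes were unique at the read length used.

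The libraries of the 11 grouped mice held 31745630 to 45142355 estimated counts, and each had a read on 26378 to 28196 genes. The tissue expressed its neuronal and glial marker lists in every mouse, with summed levels of 5522 to 7113 CPM (counts scaled to one library size with TMM factors) for 8 neuronal markers and of 311 to 440 CPM for 10 microglial markers. No listed marker of any cell type lacked reads throughout the grouped mice. Reads were found in every grouped mouse for 4 of 8 pituitary markers, 7 of 8 choroid plexus markers and all markers of the other lists. The mice were the replicates throughout, and bulk tissue cannot separate a change in the number of cells of a type from a change in RNA per cell.

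Among the Gi/o members, Gnai2 stood apart. It lies on the minus strand of chromosome 9 (107614125 to 107635367, GRCm38) and encodes an inhibitor of adenylyl cyclase that is found in most tissues. In the less anxious mice 3, 7 and 12 it had 119, 149 and 137 CPM. The anxious mice 1, 4, 8 and 11 had 127, 141, 195 and 117 CPM. In the more anxious mice 2, 6, 9 and 10 the values were 326, 269, 328 and 192 CPM. Each more anxious mouse lay above each less anxious mouse, whereas mouse 10 of the more anxious group lay just below mouse 8 of the anxious group.

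The group means of Gnai2 were 135 ± 15.1 CPM (SD, n = 3) in less anxious, 145 ± 34.7 CPM (SD, n = 4) in anxious and 279 ± 64.2 CPM (SD, n = 4) in more anxious mice. The more anxious mean was 2.06 times the less anxious mean. On the log2 scale, in a model with PC1 as a covariate, the more anxious group differed from the less anxious group by 0.99 (SE 0.18) and from the anxious group by 0.98 (SE 0.17), and the anxious group from the less anxious group by 0.01 (SE 0.18). On average the difference thus lay between the anxious and the more anxious group, although single mice of these 2 groups overlapped. Of the 10354 genes with a mean of at least 10 CPM, 41 (0.396%) had a log2 difference between more and less anxious mice at least as high as that of Gnai2. Since this contrast chose Gnai2, nothing is read from that share. The difference of Gnai2 was 0.74 without mouse 9 and 1.115 without mouse 10, and the other mice left out gave values between these.

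The other 2 Gi genes did not share this pattern. Gnai1 (chromosome 5, 18265135 to 18360355, minus strand) encodes a Gi subunit that is enriched in brain. It had 149, 114 and 117 CPM in the less anxious mice, 130, 132, 119 and 163 CPM in the anxious mice, and 141, 105, 132 and 121 CPM in the more anxious mice, in the order of mice used for Gnai2. The groups overlapped, and the log2 difference of more from less anxious mice was 0.04 (SE 0.11), with a range from -0.04 to 0.11 when single mice were left out.

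Gnai3 (chromosome 3, 108107280 to 108146146, minus strand) was the lowest of the 10 genes. Its values were 31.5, 28.8 and 27.7 CPM in less anxious, 25.1, 29.4, 25.8 and 27.3 CPM in anxious, and 25.5, 25.7, 24.0 and 27.8 CPM in more anxious mice. The highest more anxious mouse reached only the lowest part of the less anxious range, and the log2 difference was -0.18 (SE 0.10), opposite in sign to that of Gnai2. Without mouse 10 or without mouse 12 the less and more anxious mice did not overlap. The share of all genes was not counted for these smaller sets, so nothing is read from this. With an offset for GC content the log2 difference of Gnai3 was -0.12 (SE 0.09).

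**Figure D1:**
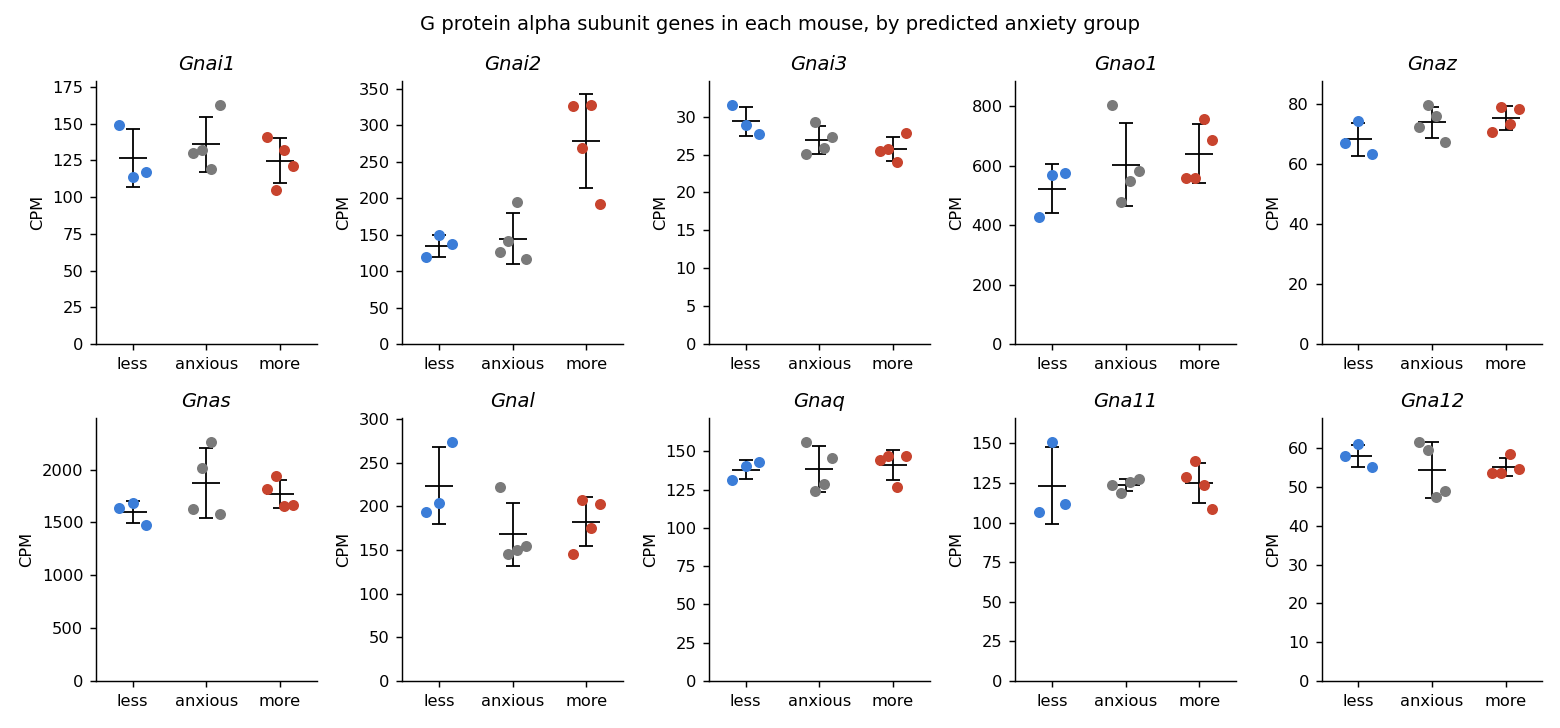
CPM of the 10 alpha subunit genes (y axis, from 0, a scale for each gene) in the less anxious, anxious and more anxious mice (x axis). Points are mice, and bars give the mean and SD. Gnai2 is the only gene in which the 4 more anxious mice, at 192 to 328 CPM, all lie above the 3 less anxious mice, at 119 to 149 CPM.

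The balance within the Gi genes moved with Gnai2. Per kb of exons, Gnai2 made up 35.5%, 46.7% and 44.1% of the summed level of Gnai1, Gnai2 and Gnai3 in the less anxious mice. The shares were 40.5%, 42.2%, 52.9% and 33.95% in the anxious mice and 62.1%, 63.2%, 63.7% and 51.8% in the more anxious mice. The mean share was 42.1% ± 5.85 (SD, n = 3) in less anxious, 42.4% ± 7.87 (SD, n = 4) in anxious and 60.2% ± 5.65 (SD, n = 4) in more anxious mice. The more anxious mice lay above the less anxious mice, and mouse 10 lay below mouse 8. Since the share contains Gnai2, it carries the same selection. Its size also depends on the length used. The exons of Gnai2 cover 3779 bases and its longest transcript 2215, which would give higher shares, while Gnai1 and Gnai3 have the same length either way.

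The ratio of Gnai2 to Gnai1, formed from CPM within a mouse, averaged 1.09 ± 0.265 (SD, n = 3) in less anxious, 1.10 ± 0.388 (SD, n = 4) in anxious and 2.24 ± 0.448 (SD, n = 4) in more anxious mice. This ratio is not corrected for length and serves to compare mice, not the levels of the 2 genes. The summed level of the 3 Gi genes was 85.2 ± 3.37 CPM per kb (SD, n = 3) in less anxious, 90.0 ± 6.07 (SD, n = 4) in anxious and 121 ± 19.7 (SD, n = 4) in more anxious mice.

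**Figure D2:**
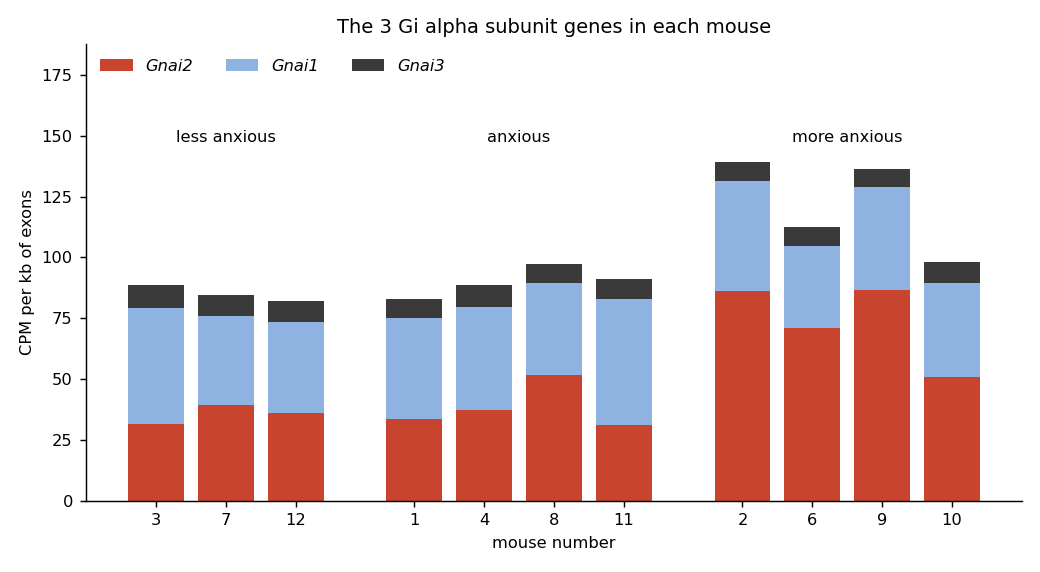
Levels of Gnai2, Gnai1 and Gnai3 in CPM per kb of exons (y axis, stacked from 0) in each grouped mouse (x axis, mouse number, by group). The Gnai2 part of the bar is the tallest in mice 2 and 9, and the total rises from 82.2 to 88.8 in less anxious mice to 98.0 to 139 in more anxious mice.

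Gnao1 encodes Go, the alpha subunit that is most abundant in neuronal membranes (chromosome 8, 93809966 to 93969388, plus strand). Its levels were 427, 569 and 574 CPM in less anxious, 804, 478, 550 and 583 CPM in anxious, and 557, 559, 758 and 686 CPM in more anxious mice. The highest mouse, at 804 CPM, was in the anxious group. The log2 difference of more from less anxious mice was 0.31 (SE 0.18), and it was 0.08 without mouse 3 and 0.55 without mouse 7.

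Gnaz encodes Gz, a pertussis toxin-insensitive member found mainly in brain and platelets (chromosome 10, 74967177 to 75016907, plus strand). Its values were 67.1, 74.5 and 63.5 CPM in less anxious, 72.4, 79.8, 76.2 and 67.6 CPM in anxious, and 70.9, 79.2, 73.6 and 78.5 CPM in more anxious mice. The range over all 11 mice was narrow and the groups overlapped, with a log2 difference of 0.12 (SE 0.09).

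Gnas encodes Gs, which activates adenylyl cyclase, and was the highest of the 10 genes (chromosome 2, 174284320 to 174346744, plus strand). It had 1635, 1683 and 1478 CPM in less anxious, 1624, 2019, 2264 and 1576 CPM in anxious, and 1820, 1936, 1651 and 1666 CPM in more anxious mice. The groups overlapped, with a log2 difference of 0.09 (SE 0.11) between more and less anxious mice. The sign was not stable, since the difference was -0.08 without mouse 7, 0.24 without mouse 3 and -0.01 with an offset for GC content. The locus is imprinted and complex. Exons of Gnas overlap the antisense gene Nespas over 988 bases and the gene Gm20721 over 1469 bases, and whether the counting used the strand is not given in the sources used here. Exons also overlap those of a gene on the other strand for Gnal (Mppe1, 852 bases), Gna12 (Amz1, 456 bases) and Gnao1 (4930488L21Rik, 284 bases), so reads there may be divided with that gene.

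Gnal encodes Golf, first known from olfactory neurons and the main stimulatory alpha subunit of the striatum. It was 194, 204 and 274 CPM in less anxious, 222, 145, 150 and 155 CPM in anxious, and 146, 207, 176 and 202 CPM in more anxious mice. The highest mouse was mouse 12 of the less anxious group, and 3 of the 4 anxious mice lay together at the low end. The log2 difference from less anxious mice was -0.40 (SE 0.18) in anxious and -0.28 (SE 0.18) in more anxious mice, with overlap in both. The latter was -0.12 without mouse 12, -0.18 without mouse 2 and -0.41 without mouse 3.

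The Gq class and Gna12 varied little between the groups. Gnaq (chromosome 19, 16132831 to 16387463, plus strand), which activates phospholipase C beta, had 131, 140 and 143 CPM in less anxious, 156, 124, 128 and 146 CPM in anxious, and 144, 147, 127 and 147 CPM in more anxious mice. Gna11 (chromosome 10, 81528724 to 81545190, minus strand), its close relative, had 107, 151 and 112 CPM, then 123.5, 119, 125.5 and 128 CPM, and then 129, 139, 124 and 108 CPM in the same order. Gna12 (chromosome 5, 140758408 to 140830431, minus strand), which acts on RhoGEFs, had 57.9, 61.1 and 55.2 CPM, 61.8, 59.7, 47.4 and 48.9 CPM, and 53.6, 53.7, 58.7 and 54.7 CPM. All 3 genes overlapped between groups. The log2 differences of more from less anxious mice were 0.04 (SE 0.10) for Gnaq, -0.01 (SE 0.10) for Gna11 and -0.07 (SE 0.11) for Gna12. Their signs turned when single mice were left out, with ranges of -0.01 to 0.11 for Gnaq, -0.08 to 0.11 for Gna11 and -0.10 to 0.04 for Gna12.

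Gnai2 was thus the single member of the 10 whose less and more anxious values did not overlap. In all 26963 genes, 8.4% did not overlap, 4.49% with the more anxious mice higher and 3.91% with them lower. Between the anxious and the more anxious mice, where Gnai2 and the other 9 members overlapped, 2.5% of genes did not. Since this contrast chose Gnai2, nothing is read from the count, which was 3 without mouse 7 or mouse 9 and 2 without mouse 10 or mouse 12. Over the 11 mice the coefficient of variation of Gnai2 was 42.2%, and that of the other members lay between 7.34% (Gnaz) and 21.01% (Gnal).

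**Figure D3:**
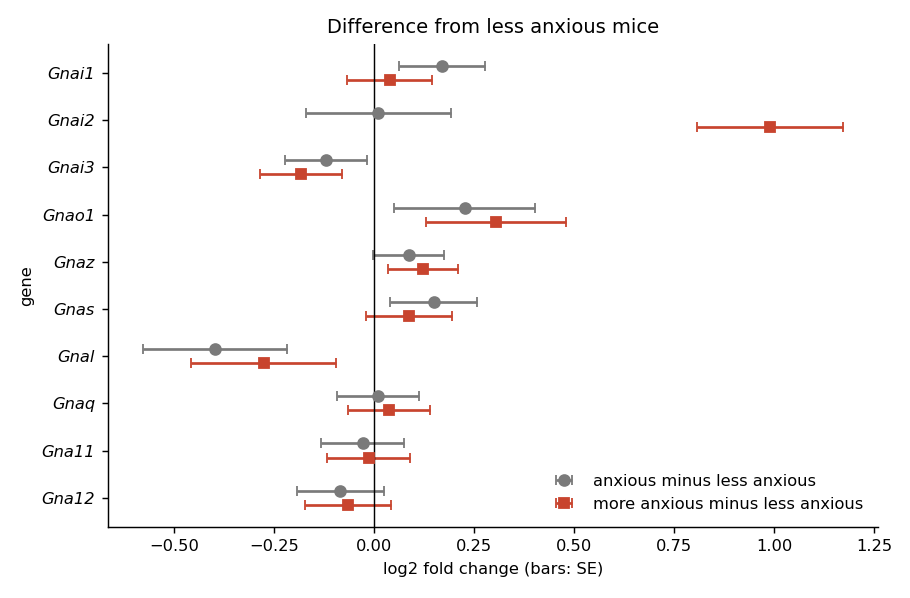
Log2 fold change from the less anxious mice (x axis, with SE) of the 10 genes (y axis), for anxious mice (grey circles) and more anxious mice (red squares), from edgeR's fit over all genes with PC1 as a covariate. The red square of Gnai2 lies at 0.99, and the other 19 values lie between -0.40 and 0.31.

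The order of the members was compared per kb of exons over all 12 mice. Gnas was first, with a mean of 154 ± 22.3 CPM per kb (SD, n = 12). Gnao1 (53.1 ± 10.1), Gnai2 (48.6 ± 21.5), Gnai1 (41.2 ± 5.11) and Gna11 (30.5 ± 3.11) followed, and their ranges overlapped from each gene to the next. Below a gap came Gnaq (22.5 ± 1.59), Gnaz (20.04 ± 1.56), Gnal (17.1 ± 3.48) and Gna12 (16.1 ± 1.47), again with overlapping neighbours. Gnai3 was last in each mouse, at 8.53 ± 0.941. Gnas was above Gnao1, Gna11 above Gnaq and Gna12 above Gnai3 in 12 of 12 mice without any overlap of ranges. Gnai2 was placed between rank 2 and rank 5, as was Gnai1, and Gnao1 held rank 2 or 3. With the longest transcript in place of the union of exons, Gnal moved from place 8 to place 6, Gna11 was no longer separate from the next gene, and Gnai2 was above Gnai1 in 12 of 12 mice in place of 6.

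The next comparison asked how the members related to the 7 behavior measures, namely time and distance in the light and open arm time (each as a percentage), total entries, and the box:zone ratio of the SIT at 3, 5 and 10 min. The groups were cut from a component picked for its relation to the EPM and LD, and Gnai2 was picked from the groups, so the EPM and LD tests are not independent of the choice of Gnai2. A slope is the change in log2 expression per SD of a measure, fitted with edgeR over all genes in the 11 mice (10 at 3 min).

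None of the 70 relations of a member with a measure passed edgeR's test after Benjamini-Hochberg adjustment over all genes, the smallest adjusted p being 0.629. Among all genes, 0.00742% passed for time in light, 0% for each of distance in light, open arm time and total entries, and 0.015%, 0.0111% and 0.0223% for the ratios at 3, 5 and 10 min. At an unadjusted p under 0.05 there were 3 relations. The share of all genes under that threshold was 3.55% with time in light as the measure, 5.8% with distance in light, 5.84% with open arm time, 6.97% with total entries, and 7.65%, 6.56% and 8.05% for the ratios at 3, 5 and 10 min, and 3 of 70 lay within the range of this background. The count was 6 without mouse 6 and 1 without mouse 7 or mouse 10. DESeq2's likelihood ratio test also called 0 of 70 after adjustment.

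The 3 relations concerned Gnal and Gna11. Gnal rose by 0.19 log2 units (SE 0.07) per SD of distance in the light (edgeR unadjusted p = 0.0151, adjusted p = 0.848) and by 0.16 (SE 0.07) per SD of total entries (edgeR unadjusted p = 0.0406, adjusted p = 0.700). For Gna11 the slope was -0.10 (SE 0.04) per SD of the 3-min ratio (edgeR unadjusted p = 0.0415, adjusted p = 0.629). None of these 3 stands after the adjustment. The slope of Gnal on total entries was 0.07 without mouse 12 (unadjusted p = 0.335), 0.11 without mouse 2 (unadjusted p = 0.152) and 0.09 with the group as a covariate (unadjusted p = 0.259). That of Gna11 was -0.06 without mouse 7 (unadjusted p = 0.243).

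The slope of Gnai2 was -0.13 (95% interval -0.46 to 0.20) per SD of time in light, -0.25 (-0.55 to 0.06) per SD of distance in light and -0.21 (-0.54 to 0.13) per SD of open arm time. Total entries gave -0.20 (-0.56 to 0.15). The values were 0.12 (-0.31 to 0.56), -0.14 (-0.54 to 0.26) and -0.22 (-0.62 to 0.17) per SD of the ratios at 3, 5 and 10 min. Each interval held 0, and each was wide beside the slopes of the other members.

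The values of Gnai2 against the LD measures and open arm time depended on mouse 6. This mouse belongs to the more anxious group and had 269 CPM of Gnai2, but it spent 46.6% of the time in the light and 29.2% of the maze time on open arms, the highest values of the grouped mice in both. The other 3 more anxious mice spent 12.4% to 20.9% of the time in the light. Over all 11 mice, Pearson's r of log2 Gnai2 with time in light was -0.27 (permutation p = 0.435; rho = -0.53, permutation p = 0.100) and with distance in light -0.51 (permutation p = 0.112; rho = -0.60, permutation p = 0.0565). After Benjamini-Hochberg adjustment over the 7 measures these p-values of r were 0.593 and 0.579.

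Without mouse 6, r was -0.84 for time in light and -0.88 for distance in light, and edgeR's slope on distance in light became -0.49 (SE 0.07, adjusted p = 0.0367 over all genes). Leaving out the 2 mice farthest from the median, as planned, gave r = -0.84 for time (without mice 3 and 6) and r = -0.82 for distance (without mice 2 and 6). There is no ground in the labels for leaving mouse 6 out, and the values without it describe the other 10 mice. With the anxiety group as a covariate, which was added after seeing the data and leaves the relation within groups, edgeR's slope of Gnai2 was -0.10 (SE 0.08, unadjusted p = 0.212) on time in light and -0.14 (SE 0.08, unadjusted p = 0.103) on distance in light. None of the 70 relations passed the adjustment in that model.

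For open arm time, r was -0.38 (permutation p = 0.241) and rho -0.38 (permutation p = 0.248), and leaving out mice 2 and 10 gave r = -0.15. Without mouse 6, r with open arm time was -0.69 (permutation p = 0.0271, adjusted over the 7 measures 0.0633), and edgeR's slope was -0.41 (SE 0.12, unadjusted p = 0.00601, adjusted p = 0.524). With the group as a covariate that slope was -0.0038 (SE 0.11). For total entries, r was -0.33 (permutation p = 0.331) and rho -0.09 (permutation p = 0.801), and leaving out mice 1 and 2 gave r = -0.17. At 3, 5 and 10 min of the SIT, r was 0.17, -0.23 and -0.34 (permutation p = 0.631, 0.508 and 0.318), with rho of 0.08, -0.14 and -0.27 (permutation p = 0.839, 0.697 and 0.417). Without the 2 farthest mice these were 0.09, 0.37 and 0.14, so the sign at 5 and 10 min rested on mice 2 and 3. Adjusted p-values of r over the 7 measures lay between 0.579 and 0.631.

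**Figure D4:**
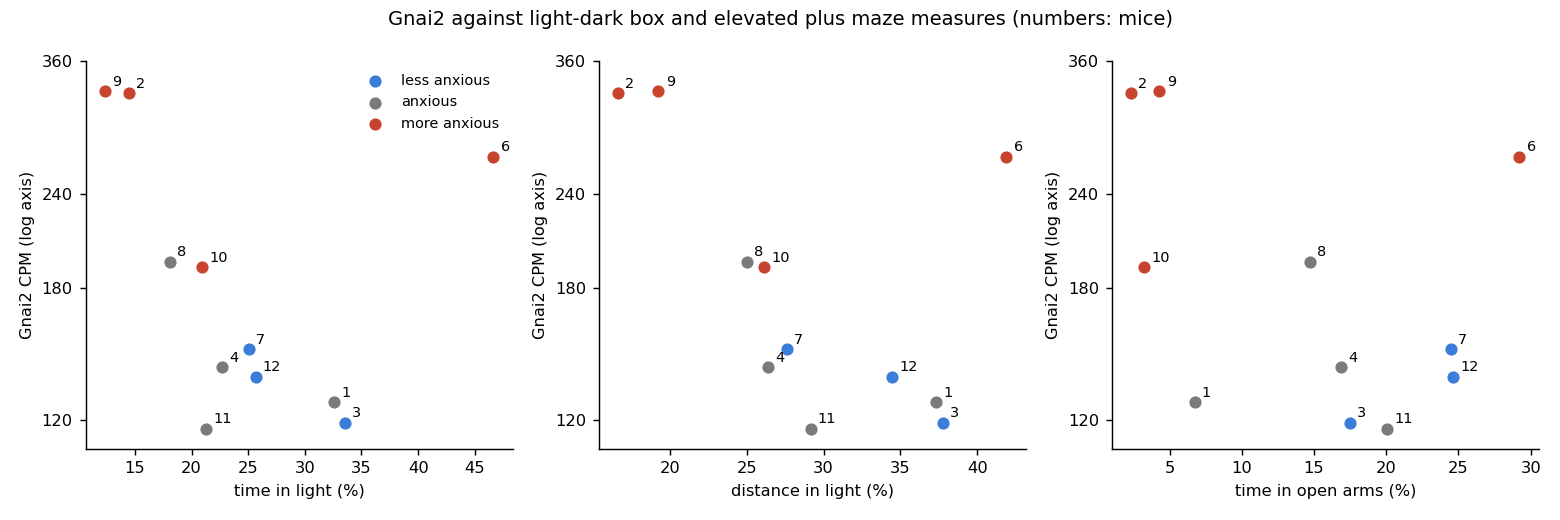
CPM of Gnai2 (y axis, log scale) against the percentage of time in the light, of distance in the light and of time on open arms (x axes) in the 11 grouped mice, numbered and colored by group. Mouse 6, at 269 CPM, lies at the right end of each panel, apart from the other more anxious mice.

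The members were then compared with each other over the 11 mice. Of 45 pairs, 0 passed a permutation test of Pearson's r after Benjamini-Hochberg adjustment over the pairs, and 4 had an unadjusted p under 0.05. Gnai2 and Gnai3 moved in opposite directions (r = -0.67, permutation p = 0.0265, adjusted p = 0.397; rho = -0.52, permutation p = 0.108), as did Gnai3 and Gnao1 (r = -0.74) and Gnas and Gnal (r = -0.62), while Gnaz and Gnas moved together (r = 0.69). None of the 4 stands after adjustment. Gnai2 and Gnai1 had r = -0.30 (permutation p = 0.375; rho = -0.36, permutation p = 0.273).

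The genes whose log2 CPM followed Gnai2 most closely over the 11 mice, out of 10353 with a mean of at least 10 CPM, were Aars2 (r = 0.94), Ccl27a (0.92), Dennd6b (0.92), Fcho1 (0.91) and Tmem191c (0.91). The middle 90% of these genes had r between -0.63 and 0.66. The changes of these 5 genes were smaller than that of Gnai2, with Aars2, a mitochondrial alanyl-tRNA synthetase, going from a mean of 24.2 CPM in less anxious to 27.7 CPM in more anxious mice, and Tmem191c from 54.3 to 79.8 CPM. Mice share their library in such a comparison. Genes like Gnai2 were rich in G and C, with a median GC content of 58.0% in the closest 100 genes and of 49.6% in all, and Gnai2 itself has 56.7%.

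The GC content of the libraries, weighted by counts, averaged 48.2%, 48.3% and 48.4% in less anxious, anxious and more anxious mice, with overlapping ranges. A trend of the log2 deviation of a library on gene GC was also fitted. Per 10 points it averaged -0.08 in less anxious mice (range -0.19 to 0.06) and -0.0017 in anxious mice (-0.08 to 0.08). In more anxious mice it averaged 0.06 (-0.02 to 0.14), again with overlap. With an offset that removes this trend, Gnai2 was 131, 143 and 147 CPM in less anxious, 131, 138, 186 and 120 CPM in anxious, and 323, 258, 306 and 195 CPM in more anxious mice, and the log2 difference of more from less anxious mice was 0.90. The less and more anxious mice still did not overlap, and under the offset Gna12 also did not overlap, with the more anxious mice lower.

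Gnai2 is also high in microglia, whose markers were summed in each mouse. The 10 microglial markers together came to 372 to 440 CPM in less anxious, 341 to 396 CPM in anxious and 311 to 394 CPM in more anxious mice. Of the 10, none was higher and 1 was lower in more anxious mice without overlap. Mice 2 and 9, with the most Gnai2, had sums of 311 and 394 CPM, the lowest and the highest of the more anxious group. Other lists did move with the groups. The 8 astrocyte markers summed to 3669 to 4375 CPM in less anxious, 3117 to 3876 CPM in anxious and 3136 to 3614 CPM in more anxious mice, without overlap of less and more anxious mice. Of these, Slc1a2, Slc1a3 and S100b were lower without overlap, and Slc1a3 had an adjusted p of 0.0293 with DESeq2 and 0.492 with edgeR. Because the groups were cut from these expression data, both p-values describe the difference and are no independent test of it. Slc1a2 alone had a mean of 1950 CPM in less anxious and 1568 CPM in more anxious mice. The 8 endothelial markers summed to 133 to 184 CPM in less anxious and 103 to 128 CPM in more anxious mice, also without overlap. Taken singly, 0 of the 8 were without overlap. The 8 pituitary markers summed to 4.20 to 4.87 CPM in less anxious, 3.19 to 58.1 CPM in anxious and 2.62 to 3.30 CPM in more anxious mice. The sums of the 8 neuronal markers overlapped, at 5522 to 5969 CPM in less anxious and 5692 to 7113 CPM in more anxious mice. Of the 8, 2 were higher without overlap. In all genes, 4.49% were higher and 3.91% lower in more anxious mice without overlap. The part of cell content in the Gnai2 values was not tested.

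Gnal moved with the summed level of markers of striatal-type neurons. The 10 markers of such neurons (among them Drd1, Drd2, Adora2a and Ppp1r1b) summed to 478, 970 and 1293 CPM in the less anxious mice 3, 7 and 12, to 747, 404, 427 and 379 CPM in the anxious mice, and to 459, 888, 679 and 591 CPM in the more anxious mice. Gnal was highest where this sum was highest. The relation was looked for after the values had been seen, so its p-values describe it and do not test it. Of 10353 genes with a mean of at least 10 CPM, 108 (1.04%) had r of at least 0.8 with Gnal. Pearson's r of Gnal with the sum, both as log2, was 0.88 (permutation p = 0.00039, adjusted over 3 such relations 0.00117; rho = 0.87, permutation p = 0.00073), and it was 0.81 without mice 7 and 12, the most extreme. The share of such neurons in the dissected tissue can thus not be told apart from Golf expression per cell.

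Adenylyl cyclase 5 and the gamma subunit Gng7, which work with Golf in the striatum, were compared with Gnal in the same way, also after the values had been seen. Adcy5 had r = 0.79 (permutation p = 0.00135, adjusted p = 0.00203) and rho = 0.76 (permutation p = 0.00798), and r remained at 0.75 once mice 7 and 12 were left out. For Gng7 r was 0.49 (permutation p = 0.133; rho = 0.29, permutation p = 0.385), and it turned to -0.24 without mice 7 and 12, so it rested on those mice.

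**Figure D5:**
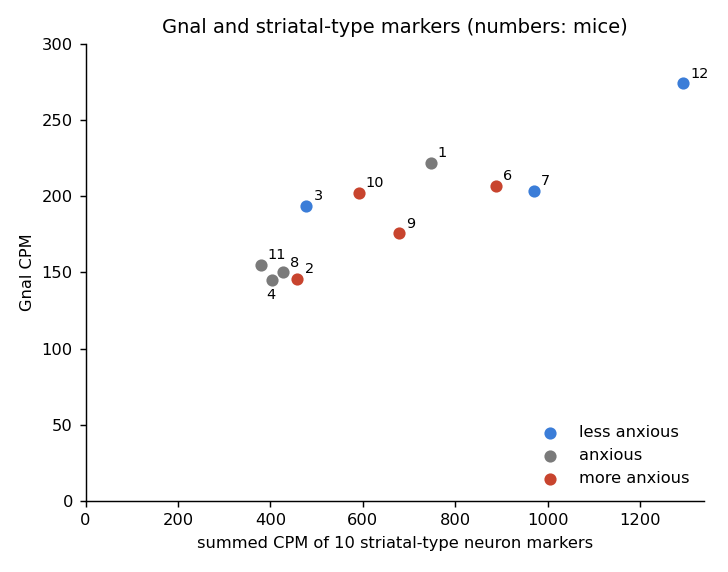
CPM of Gnal (y axis, from 0) against the summed CPM of 10 markers of striatal-type neurons (x axis) in the 11 grouped mice, numbered and colored by group. Mouse 12, at 274 CPM of Gnal, has the highest sum, 1293 CPM, and mice 2, 4, 8 and 11 lie together at the low end of both.

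The partners of the alpha subunits were compared across the 3 groups with edgeR's quasi-likelihood test. The groups were cut from the expression data of these same mice. The p-values of the partner genes, here and below, therefore describe differences and are no independent test of them. Of 130 listed genes (other alpha subunits, beta and gamma subunits, chaperones and GoLoco proteins, adenylyl cyclases, protein kinase A, GIRK channels, phospholipase C beta, RhoGEFs and receptors), 129 were tested and Gnat3 was not. None passed after adjustment over all genes, of which 2 in 26963 (0.00742%) did. At an unadjusted p under 0.05 there were 15 (11.6%), against 6.36% of all genes, with 6 higher (3.95% of all genes) and 9 lower (2.41% of all genes) in more than in less anxious mice. The count of 15 was 4 without mouse 7, 25 without mouse 1 and 26 without mouse 2. The median log2 difference of all tested genes was 0.0036. DESeq2's likelihood ratio test called 1 of the 129, of which some, such as Gna14 and Drd3, had no adjusted p. Of the 15107 genes with an adjusted p, it called 197 (1.3%).

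The gene that DESeq2 called was Adrb1, the beta-1 adrenergic receptor, which couples to Gs. It had 12.0 ± 1.56 CPM (SD, n = 3) in less anxious, 13.8 ± 1.27 (SD, n = 4) in anxious and 17.4 ± 0.872 (SD, n = 4) in more anxious mice, with a log2 difference of 0.51 (SE 0.12). The less and more anxious mice did not overlap. The adjusted p was 0.00999 with DESeq2 and 0.431 with edgeR.

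Of the subunits that bind alpha, 0 of 5 beta genes and 4 of 11 gamma genes had an unadjusted p under 0.05, against 6.36% of all genes. Gng13, a gamma subunit known from taste and retinal cells, was at 15.9 ± 2.84 CPM (SD, n = 3) in less anxious and 25.5 ± 4.65 (SD, n = 4) in more anxious mice, a log2 difference of 0.68 (SE 0.18). Gng3, a neuronal gamma subunit, was at 173 ± 21.2 and 230 ± 19.6 CPM, a log2 difference of 0.37 (SE 0.13). Both did not overlap between these groups. Gng7 was at 186 ± 42.2 and 141 ± 13.3 CPM, a log2 difference of -0.43 (SE 0.13). The other alpha subunit genes (Gna13, Gna14, Gna15, Gnat1 and Gnat2) had 0 of 5 below that p, and their median level was only 0.53 CPM.

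Among the effectors, 1 of 9 adenylyl cyclases was below the unadjusted threshold, against 6.36% of all genes. The cyclase was Adcy5, at 239 ± 54.1 CPM (SD, n = 3) in less anxious and 184 ± 8.46 CPM (SD, n = 4) in more anxious mice, a log2 difference of -0.40 (SE 0.14). Arhgef1, 1 of 3 RhoGEFs that G12 acts on, was at 53.3 ± 2.77 and 64.1 ± 5.58 CPM, a log2 difference of 0.28 (SE 0.10). The 6 protein kinase A subunits, 4 GIRK channels, 4 phospholipase C beta genes and 8 chaperones and GoLoco proteins had 0 genes below it.

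Of all genes, 6.36% were below the unadjusted threshold, 3.95% higher and 2.41% lower in more than in less anxious mice. Receptors that couple to Gi/o had 4 of 33 genes below it, all lower in more than in less anxious mice. They included Htr1d, a serotonin receptor, with a log2 difference of -0.88 (SE 0.38), and Oprd1, the delta opioid receptor, with -0.77 (SE 0.22). Both were low, at 1.48 to 6.91 CPM and 2.81 to 7.20 CPM over the 11 mice. Receptors that couple to Gs or Golf had 4 of 19, namely Adrb1, Vipr2 (0.12, SE 0.36), Gpr6 (-0.82, SE 0.37) and Drd1 (-0.53, SE 0.30). Drd1 and Gpr6 are also among the striatal-type markers above. Of the 22 receptors of the Gq class, 1 was below it, the serotonin receptor Htr2c, at 151 ± 11.2 CPM (SD, n = 3) in less anxious and 125 ± 13.6 CPM (SD, n = 4) in more anxious mice, a log2 difference of -0.25 (SE 0.10). These genes were not called by edgeR after adjustment, their adjusted p-values lying between 0.431 and 0.784.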

How the data were processed

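Amygdala mRNA of 12 mice was sequenced in a single run from stranded libraries with single-end reads of 75 bases. According to the paper's methods, the authors trimmed reads, checked them in STAR alignments against mm10 and ran Salmon, whose transcript estimates tximport turned into gene values. The deposited estimated counts (expected counts) are whole numbers without normalization. The processing notes of the submitters also name CASAVA and DESeq2. Annotation release, versions and use of strand are not given in the sources used here. Groups and behavior measures came from the labels. Mouse 5, which the paper's methods left out as an outlier, has no group. It entered the order of levels and no test outside an alternative.

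Groups were fitted with edgeR 4.0.16 (R 4.3.3) on all genes with at least 10 reads in total, using TMM factors, robust quasi-likelihood and the PC1 score as a covariate. Behavior slopes had no covariate. Benjamini-Hochberg adjustment ran over all genes at 0.05. CPM used TMM factors, and log2 CPM a prior count of 2. The SE came from the F statistic of each coefficient. DESeq2 1.42.0 was an alternative. Correlations had 100000 two-sided permutations (numpy 2.4.6, scipy 1.17.1, pandas 2.3.3, Python 3.11.15), and figures used matplotlib 3.10.9. Gene models, coordinates and sequences came from GENCODE M21 (GRCm38). The fits were also run on simulated counts with fixed groups, which does not cover groups cut from the expression data themselves.

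The members and lists were chosen with earlier results of these data known. By rule the text names all members, up to 2 rises and 2 falls per partner list at an unadjusted p under 0.05, and the 5 genes most like Gnai2. Leaving out each mouse, size factors, filters, the test, the covariate, GC, ranks and gene length were varied. P-values set an effect against the spread between mice. Counting error is small for the many reads of the members and larger for partner genes and markers of low level. Promoters were not used here.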

Additional observations from a re-analysis of the deposited data

Results flagged for a closer look

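The highest or lowest mouse of a group of 4 was checked in 20 sets of values, the 10 genes in the anxious and the more anxious mice, and 2 stood apart by Dixon's criterion, while chance gives about 1 in 20. In the anxious group, mouse 1 had 222 CPM of Gnal and the other mice 145 to 155 CPM. In the more anxious group, mouse 9 had 127 CPM of Gnaq and the others 144 to 147 CPM.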

How the results depend on the processing

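No paired analysis was possible because each mouse belongs to 1 group and the replicate numbers pair no mice. The Gnai2 log2 difference of more from less anxious mice was positive in each setting, from 0.74 to 1.115 when a mouse was left out. The number of genes called across groups was 2, but 9 without a count filter, 0 with at least 10 reads in each of 3 mice, 0 without PC1, 197 with DESeq2 and 0 (without mouse 9) to 5 (without mouse 10) when a mouse was left out. Partner genes called were 0, but 1 with DESeq2. Partner genes at an unadjusted p under 0.05 numbered 15, but 4 to 26 when a mouse was left out, with 4 without mouse 7, 25 without mouse 1 and 26 without mouse 2. Members without overlap of less and more anxious mice were 1, but 2 with the GC offset (added after seeing the data) and 1 to 3 when a mouse was left out, Gnai2 being among them each time. Of the 70 behavior relations 0 to 1 passed the adjustment and 1 to 6 the unadjusted threshold when a mouse was left out, the adjusted call (Gnai2 with distance in light) and the 6 arising without mouse 6.

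The r of Gnai2 ran from -0.84 to -0.059 for time in light, -0.88 to -0.32 for distance in light, -0.69 to -0.20 for open arm time, -0.50 to 0.055 for total entries, -0.17 to 0.41 for the 3-min ratio and -0.40 to 0.010 for the 5-min ratio when a mouse was left out. Its slope ran from -0.31 to 0.0013 on total entries and from -0.23 to 0.018 on the 5-min ratio, positive only without mouse 2, and from -0.11 (without mouse 9) to 0.23 on the 3-min ratio, where it was -0.039 with the group as a covariate (added after seeing the data). With residuals after PC1, 1 of 45 member pairs passed the adjustment, Gnai1 with Gnal (r = -0.88, permutation p = 0.00038, adjusted p = 0.0171), against r = -0.47 before. The cause of these changes was not tested.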

Other observations

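The paper's methods left mouse 5 out as an outlier in a principal component analysis, and it has no anxiety group. This mouse had 101 CPM of Gnai2, below the 117 to 328 CPM of the other mice scaled together with it. Its Gnai3, at 34.9 CPM, was above their 24.0 to 31.6 CPM, and its Gnas, at 1351 CPM, was below their 1478 to 2265 CPM. The other 7 genes lay within the range of the grouped mice. A read fell on 23768 genes in this library of 32682574 counts, against 26378 to 28196 genes in the grouped mice. Whether its values reflect the library or the mouse was not tested. Mouse 5 spent 12.1% of the time in the light and 7.34% of the maze time on open arms.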
